A study of Mus musculus with 7 samples.

Results

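The genes described here are the molecular chaperones of the mouse named as heat shock proteins, together with their J-domain partners and the subunits of the cytosolic chaperonin. Members were chosen by symbol alone: heat shock protein genes beginning Hspa, Hspb, Hspd, Hspe or Hsph and then a digit, the Hsp90 genes, Hspbp1, the genes Dnaja, Dnajb or Dnajc followed by a number, and Cct2 to Cct8. They made up 89 of the 50600 entries of the bulk counts, and 10 of them carried pseudogene symbols. After the filter on low counts 73 members were tested among 18088 genes. The remaining 16 comprised 9 pseudogenes, 6 of them at 0 in every library, and Cct6b, Dnajb13, Dnajb7, Dnajb8, Dnajc22, Hspb3 and Hspb9, none of which had more than 41 counts over all 6 libraries.

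Chaperones bind unfolded or partly folded proteins and let them fold, move across membranes or be handed on for degradation. HSP70 proteins do this in cycles of ATP hydrolysis that J-domain proteins (DNAJ) start and nucleotide exchange factors end, HSP90 acts later on nearly folded clients such as kinases and steroid receptors, and small HSPs hold unfolded chains without ATP. The chaperonins are closed chambers: HSP60 with its lid HSP10 in mitochondria, and the CCT ring in the cytosol, whose best known clients are actin and tubulin. Some members are made at all times, others are induced by heat shock factors or by the unfolded protein response of the endoplasmic reticulum (ER), and in neurons a few serve the recycling of synaptic vesicles.

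The bulk data set neural stem and progenitor cells (NSPCs), grown as primary cultures from the dentate gyrus (DG) of adult mice, beside whole DG tissue, the hippocampal region in which granule neurons are born in adults. The 4 cultures came from C57Bl6J mice aged 6 to 8 weeks (F1 and F2 from females, M1 and M2 from males). They were at passages 6 to 15 and grew on poly-d-lysine and laminin in neurobasal A with B27 lacking vitamin A, glutaMAX, and epidermal growth factor and basic fibroblast growth factor at 20 ng/ml each. About 30000 cells were used for each culture library. The 2 whole DG libraries came from untreated C57Bl6J mice aged 7 to 9 weeks, 1 female (F1) and 1 male (M2). A single-cell library pooled equal numbers of cells from 3 such cultures (2 female, 1 male, from mice aged 6 to 9 weeks), and nothing ties its cells to a culture.

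Total counts were 9917697 to 11747408 in cultures and 16676618 and 17351636 in whole DG. Culture libraries were made with the SMART-Seq HT kit and whole DG libraries with the NEBNext Ultra II Directional kit, so kit and group cannot be told apart. Cultures also had the higher RNA integrity per the labels. Of 5 NSPC markers 3 were higher in cultures (Nes, Vim, Fabp7), while Sox2 and Hes5 were lower, and the summed level was 3039 to 4098 counts per 1000000 counts (CPM) against 122 to 126 CPM. All 7 neuronal markers were lower, summed 755 to 932 CPM in cultures, most of it Map2, against 9452 to 10127 CPM in whole DG, and none was at 0 in all cultures. Markers of inhibitory neurons (5 of 5 lower, Slc32a1 and Sst at 0 in cultures), oligodendrocytes (5 of 5 lower), microglia (5 of 5 lower, Aif1 at 0) and endothelial cells (5 of 5 lower, Cldn5 at 0) each summed to under 16 CPM in every culture and to between 82.9 and 1411 CPM in whole DG. Of 5 astrocyte markers 3 were lower and 1, Aldh1l1, was higher. The 6 division genes were all higher in cultures (summed 989 to 1492 CPM against 74.3 to 77.1 CPM). In bulk tissue, fewer cells of a type and less RNA per cell cannot be told apart, and the part of cell composition in the differences below was not tested.

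Pieces of promoter are shown for 3 ER members and for the mitochondrial HSP60 and HSP10 pair. They hold motifs of the ER stress and heat shock responses. All of these members were called higher in cultures, as reported below, but other members that hold the heat shock element were not. Windows from 250 bases before to 50 bases after each RefSeq start site (build GRCm38.p6) were at hand for 65 members and for 27025 genes in all. The ER stress element, searched on both strands as CCAAT and CCACG with a spacer of 9 bases, was in the windows of 3 members, Hspa5, Hsp90b1 and Dnajc3 (4.62% of members and 0.137% of all genes). Capitals mark it in the sequences below, on either strand. The piece of Hspa5 is chr2:34772020-34772049, plus strand, bases -70 to -41 from the start site, and lies in the first exon of a longer annotated transcript of the gene. That of Hsp90b1 is chr10:86705524-86705664, minus strand, bases -220 to -80, and holds 2 matches. That of Dnajc3 is chr14:118937812-118937931, plus strand, bases -120 to -1.
Hspa5: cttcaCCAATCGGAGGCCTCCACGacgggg
Hsp90b1: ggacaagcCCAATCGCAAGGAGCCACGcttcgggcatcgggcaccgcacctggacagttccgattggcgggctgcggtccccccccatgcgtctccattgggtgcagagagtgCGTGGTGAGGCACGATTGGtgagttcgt
Dnajc3: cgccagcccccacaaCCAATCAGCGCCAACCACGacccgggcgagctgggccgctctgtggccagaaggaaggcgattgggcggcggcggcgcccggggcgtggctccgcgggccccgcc

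A shorter form, ER stress element II (ATTGG and CCACG with a spacer of 1 base), was in the window of Dnajb11 (1.54% of members, 0.0444% of all genes). The heat shock element, searched on both strands as GAA, TTC and GAA with spacers of 2 bases, was in the windows of Dnajb6, Hspd1, Hspe1 and Hsph1 (6.15% of members, 0.662% of all genes). Among these, Hspd1 and Hspe1 were called higher in cultures, Hsph1 was called lower and Dnajb6 was not called, as reported below. Hspd1 and Hspe1 lie head to head on chromosome 1 (55077835 to 55088243, minus strand, and 55088132 to 55091307, plus strand, in GENCODE M21), so both windows hold the same 2 overlapping matches. They are in capitals in the piece chr1:55088053-55088082, plus strand, bases -95 to -66 from the Hspe1 start site, which also overlaps an annotated exon of Hspd1.
Hspe1: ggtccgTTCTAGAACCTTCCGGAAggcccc
A match describes letters in the window and is no evidence that a factor binds there.

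Between cultures and whole DG the family moved in both directions. The tested CCT subunits and the HSP60 and HSP10 pair all rose, while each of the other subfamilies held members called higher and members called lower. Of the 73 tested members 32 were higher in cultures, 26 were lower and 15 did not pass the test (edgeR quasi-likelihood test, Benjamini-Hochberg adjusted p under 0.05 over all genes). These counts stand close to the background of all genes, of which 77.3% were called, 35.6% higher and 41.7% lower. Counts by subfamily or list below are to be read beside these shares, and no subfamily or list was tested as a set. With a test against a fold of 2, 18 members were higher and 20 lower, where 20.3% and 31.9% of all genes were. In 65 of 73 members the ranges of the groups did not overlap, against 83.6% of all genes, and this held for all 58 members that were called. In 35 members every culture was above both whole DG libraries (38.6% of all genes), and in 30 every culture was below both (45%). The median log2 difference (culture minus whole DG) was 0.19 over members and -0.13 over all genes. Members took 1.498% to 1.829% of all counts in cultures and 1.168% to 1.252% in whole DG.

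**Figure D1:**
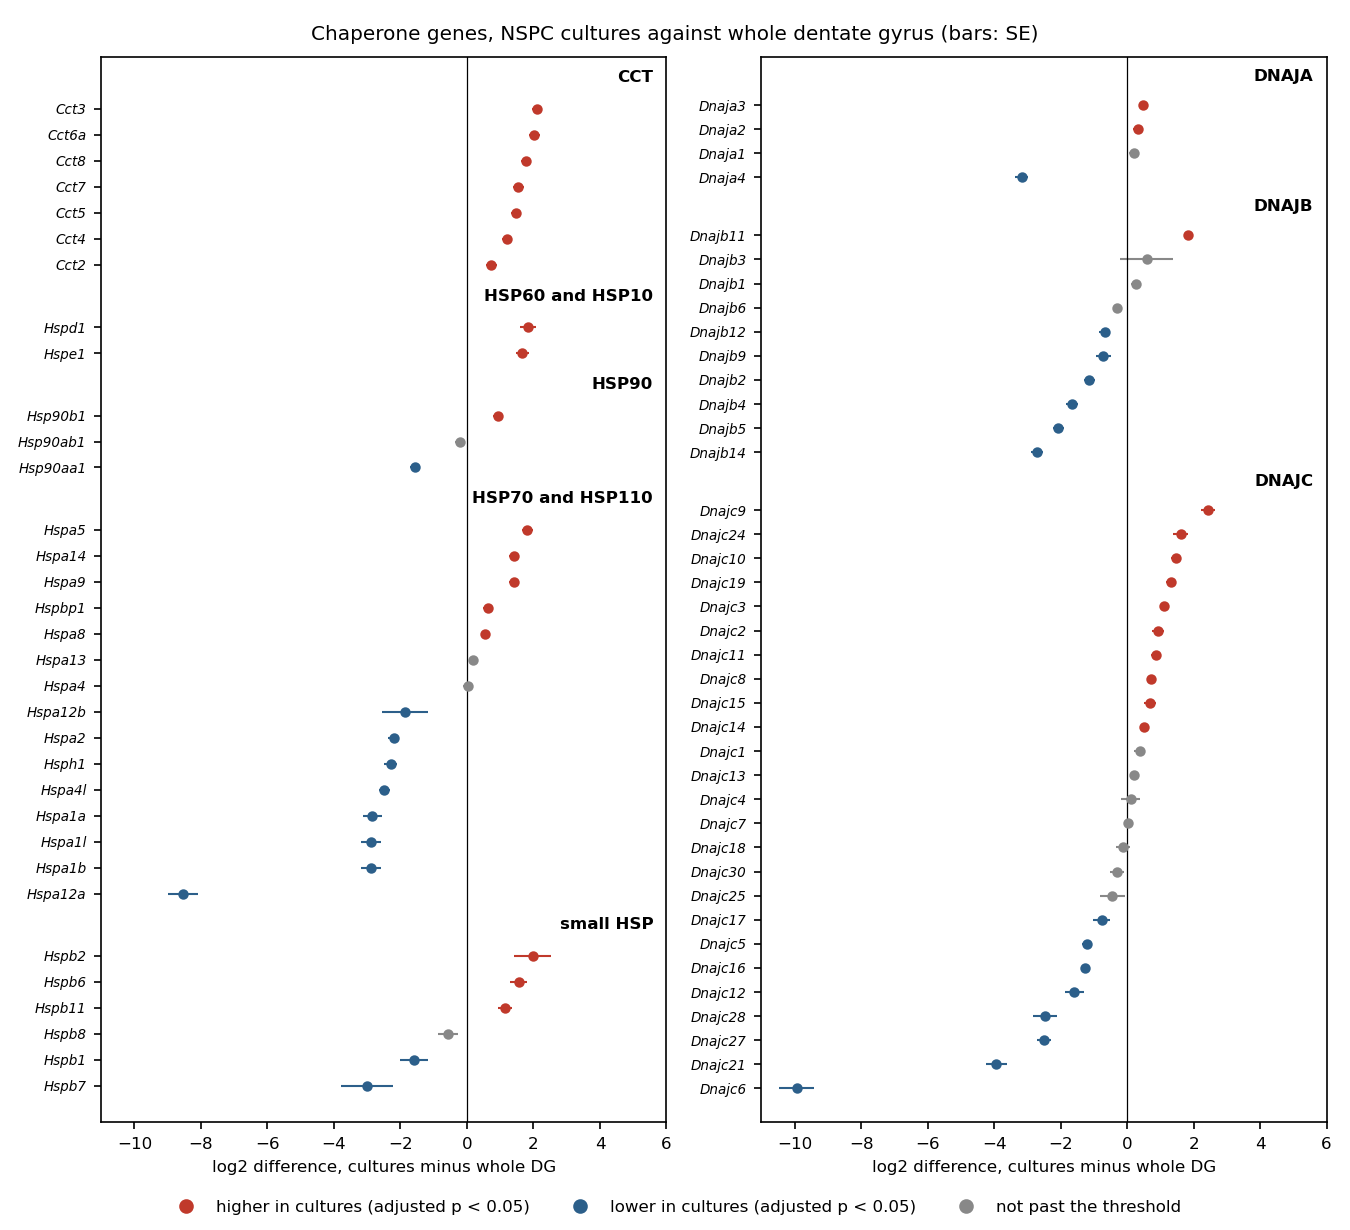
Log2 difference between cultures (n = 4) and whole DG (n = 2) for the 72 tested members without the pseudogene, by subfamily, with the standard error of the fit as bars and colour for the edgeR call. The 7 CCT subunits and the HSP60 and HSP10 pair lie right of 0, the DNAJB genes lie mostly left, and Hspa12a and Dnajc6 lie farthest left, at -8.54 and -9.93.

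All 7 tested subunits of the CCT ring rose in cultures. Each subunit fills 1 place in both rings of the chamber, and the fitted differences ran from 0.74 to 2.11 on the log2 scale with a median of 1.54. Cct3 stood at 728, 634, 556 and 561 CPM in cultures F1, F2, M1 and M2 and at 146 and 142 CPM in whole DG F1 and M2, a 4.31-fold rise (log2 2.11, SE 0.16, adjusted p = 7.66e-06). Cct8 stood at 734, 695, 623 and 585 CPM in the cultures and at 202 and 185 CPM in whole DG (log2 1.77, SE 0.15, adjusted p = 1.27e-05). Every culture was above both whole DG libraries for each of the 7 subunits.

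The rise was not equal along the ring. Cct2 had the smallest difference, with 368, 347, 299 and 270 CPM in cultures and 198 and 187 CPM in whole DG (log2 0.74, SE 0.16, adjusted p = 0.00269), and it lost the call when trends of the differences with gene length and GC content were removed (0.23, adjusted p = 0.189). Per kilobase of exon, Cct5 was the highest subunit in both groups (236 against 84.9 CPM per kilobase) and Cct4 the lowest of the 7 tested subunits in cultures (64.4 CPM per kilobase). Cct6b, a second subunit-6 gene known from testis, had 8 counts over the cultures and 5 over whole DG. Tcp1, the gene of CCT subunit 1, is outside the symbol rule. It stood at 727, 709, 578 and 567 CPM in cultures and 228 and 223 CPM in whole DG (log2 1.52, SE 0.16, adjusted p = 4.44e-05).

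**Figure D2:**
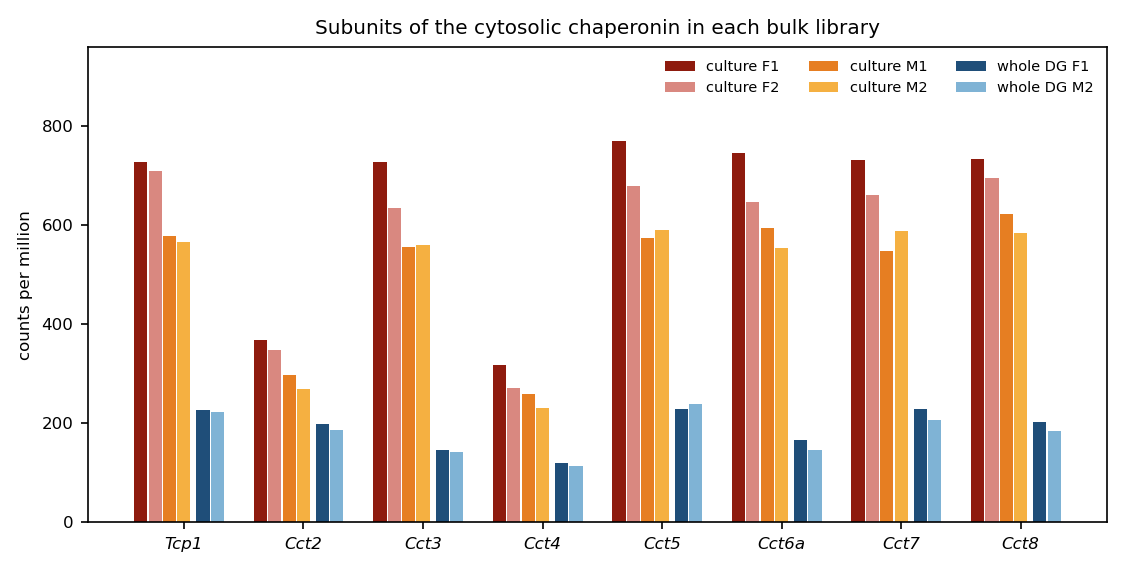
CPM of the 8 CCT subunit genes in each of the 4 culture and 2 whole DG libraries, as bars from 0. Culture F1 is the highest library for every subunit shown, and for Cct3 the cultures lie between 556 and 728 CPM while whole DG lies at 142 and 146 CPM.

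Genes that work with the chaperonin were also mostly higher. Of 16 in the list, which holds Tcp1, 15 were tested, 11 rose, 1 fell and 3 did not pass, with a median log2 difference of 0.96. The list covers prefoldin, which brings nascent actin and tubulin to the ring, the phosducin-like proteins that regulate it, and the tubulin cofactors that act after it. Within prefoldin the subunits differed: Pfdn1 rose by 1.60 and Vbp1 by 1.29, Pfdn5 fell by 0.51 (adjusted p = 0.00937), and Pfdn2 (-0.40, adjusted p = 0.111) and Pfdn6 (-0.07, adjusted p = 0.673) did not pass. All of these values are log2 differences, and the prefoldin genes were picked for mention after their values were seen.

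Members listed for mitochondria mostly rose as well. Of these 8 members 7 rose and none fell, with a median log2 difference of 1.08. The list was chosen by hand and may not hold every mitochondrial member, so the counts describe the listed genes only. Hspd1, the HSP60 chamber, stood at 813, 982, 706 and 560 CPM in cultures and 227 and 203 CPM in whole DG (log2 1.83, SE 0.23, adjusted p = 0.000141). Its lid Hspe1 stood at 159, 218, 150 and 147 CPM against 55.3 and 50.8 CPM (log2 1.67, SE 0.20, adjusted p = 9.03e-05). Culture F2 was the highest library for both genes of this head to head pair, and no culture overlapped whole DG.

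Hspa9, the mitochondrial HSP70 that pulls proteins through the inner membrane, stood at 717, 664, 764 and 644 CPM in cultures and 273 and 252 CPM in whole DG (log2 1.41, SE 0.13, adjusted p = 2.60e-05). Dnajc19, a J protein of the same import motor, stood at 62.8, 62.9, 59.1 and 61.3 CPM against 24.5 and 25.2 CPM, with a coefficient of variation (CV) of 2.88% over the cultures (log2 1.31, SE 0.13, adjusted p = 3.07e-05). The exchange factors of this HSP70, Grpel1 and Grpel2, rose by 1.30 and 0.56, and the mitochondrial HSP90 paralog Trap1, which the symbol rule does not take, rose by 1.24 on the log2 scale. Of 7 mitochondrial proteases and related genes 4 rose and none fell. The pseudogene Hspd1-ps3 (982 counts over cultures, 195 over whole DG) moved like Hspd1 (log2 1.85, adjusted p = 0.000587), and reads of such near copies may be shared between them.

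Of 8 members listed for the ER 5 rose, 1 fell and 2 did not pass, with a median log2 difference of 1.02. This list too was chosen by hand and may not hold every ER member, so the counts describe the listed genes only. Hspa5 (BiP), the HSP70 of the ER lumen and the sensor partner of the unfolded protein response, stood at 1354, 1403, 1211 and 1040 CPM in cultures and 361 and 354 CPM in whole DG (log2 1.81, SE 0.16, adjusted p = 1.89e-05). Hsp90b1 (GRP94), the HSP90 of the ER, stood at 966, 907, 904 and 773 CPM against 490 and 440 CPM (log2 0.93, SE 0.14, adjusted p = 0.000381). No culture overlapped whole DG for either gene, and both carry the ER stress element printed above.

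Of the J proteins of the ER lumen, 3 rose with them. Dnajb11, which delivers unfolded chains to BiP, stood at 175, 189, 161 and 173 CPM in cultures and 50.2 and 47.9 CPM in whole DG (log2 1.83, SE 0.13, adjusted p = 4.70e-06). Dnajc10, a reductase that opens disulfides, rose by 1.47 (SE 0.15), and Dnajc3, which also restrains the kinase PERK, rose by 1.11 (SE 0.13). Dnajb9 (ERdj4), a repressor of the sensor IRE1, moved the other way, with 22.6, 19.4, 34.1 and 25.9 CPM in cultures and 44.7 and 39.3 CPM in whole DG (log2 -0.72, SE 0.22, adjusted p = 0.0173). That call was lost with upper-quartile scaling (adjusted p = 0.0648) and without whole DG F1 (0.122) or M2 (0.0531). Hspa13 and Dnajc1 did not pass (log2 0.19 and 0.37, adjusted p = 0.230 and 0.0740).

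Of 15 further ER folding genes 10 rose and 4 fell, with a median log2 difference of 1.35. Those that rose included the disulfide isomerases P4hb (2.71), Pdia4 (2.93) and Pdia3 (2.12), the lectin chaperone Canx (1.73) and Serpinh1, the collagen chaperone HSP47 (5.45). The 4 that fell were the response sensors Atf6 (-1.22) and Ern1 (-0.83), the degradation factor Herpud1 (-0.90) and the stress transcription factor Ddit3 (-0.71). Xbp1 did not pass (-0.02, adjusted p = 0.908). All are log2 differences from the same edgeR fit, and the genes that rose were picked for mention after their values were seen.

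The cytosolic HSP90 genes differed from each other. Hsp90ab1, the constitutive form, stood at 2028, 1966, 1598 and 1654 CPM in cultures and 2154 and 2060 CPM in whole DG, and did not pass (log2 -0.22, SE 0.14, adjusted p = 0.194). With length and GC trends removed it was called lower (-0.46, adjusted p = 0.0141). Hsp90aa1, the inducible form, stood at 447, 423, 369 and 333 CPM in cultures and 1264 and 1046 CPM in whole DG and fell by 1.56 on the log2 scale (SE 0.15, adjusted p = 3.19e-05). Whole DG thus had 2.94 times the culture level of Hsp90aa1, and all cultures lay below both tissue libraries for either gene.

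The cytosolic HSP70 genes also differed from each other. Hspa8 (HSC70), made at all times and also the uncoating ATPase of clathrin, stood at 2870, 2586, 2756 and 2382 CPM in cultures and 1940 and 1682 CPM in whole DG (log2 0.55, SE 0.14, adjusted p = 0.00642), a call lost without whole DG M2 (0.45, adjusted p = 0.0837) and with length and GC trends removed (0.23, adjusted p = 0.108). Hspa1a, the classic heat-inducible HSP70, stood at 5.87, 2.95, 3.25 and 3.12 CPM in cultures and 29.0 and 26.2 CPM in whole DG (log2 -2.85, SE 0.29, adjusted p = 3.82e-05). Its near-identical neighbour Hspa1b lies with it on chromosome 17 between 34956436 and 34979285, a stretch that also holds another HSP70 gene. Hspa1b stood at 6.45, 3.21, 4.204 and 3.12 CPM against 35.1 and 28.0 CPM (log2 -2.89, SE 0.30, adjusted p = 4.14e-05). How the authors counted reads shared by the 2 copies is not known here, so their separate levels are uncertain, but both were lower in every culture.

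**Figure D3:**
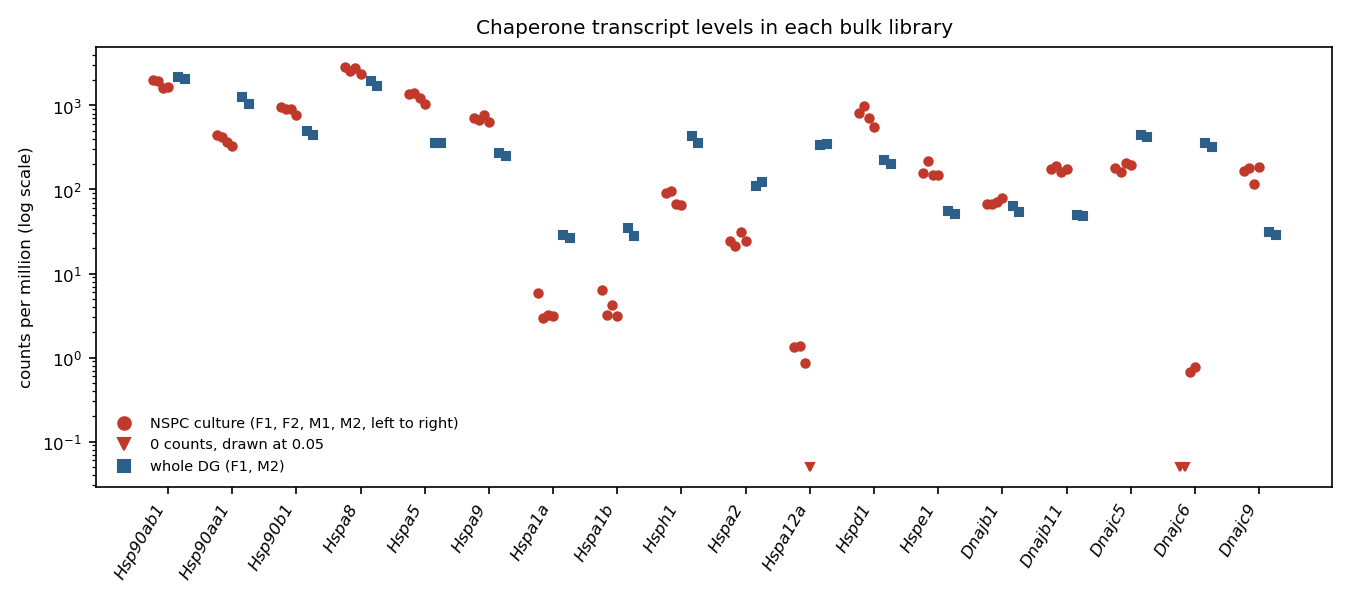
CPM on a log axis for 18 members in each culture (circles, F1, F2, M1 and M2 from left to right) and each whole DG library (squares), with triangles at 0.05 for libraries with 0 counts. Hspa8, Hspa5, Hspa9, Hspd1 and Dnajc9 lie higher in cultures, Hsp90aa1, Hspa1a, Hsph1, Hspa2 and Dnajc5 lie lower, and Hspa12a and Dnajc6 fall to 1.39 CPM or less.

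Of the 3 exchange factors of the HSP110 type, which release ADP from HSP70, 2 fell and 1 did not pass. Hsph1 (HSP105), which is heat-inducible, stood at 91.2, 96.6, 67.3 and 65.5 CPM in cultures and 431 and 358 CPM in whole DG (log2 -2.30, SE 0.19, adjusted p = 1.04e-05). Hspa4l fell by 2.48 (SE 0.17, adjusted p = 4.06e-06), while Hspa4 stood at 333, 383, 317 and 282 CPM against 344 and 301 CPM and overlapped whole DG (log2 0.03, SE 0.15, adjusted p = 0.868). Hspbp1, an exchange factor of another fold, rose by 0.63 (SE 0.15, adjusted p = 0.00449). Hspa14, the ribosome-associated HSP70, rose by 1.41 (SE 0.15), with 88.2 to 108 CPM in cultures against 35.2 and 37.5 CPM.

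Other HSP70 relatives were lower. Hspa2, known best from testis, stood at 24.4, 21.1, 31.3 and 24.6 CPM in cultures and 110 and 123 CPM in whole DG (log2 -2.20, SE 0.17, adjusted p = 6.69e-06). Hspa12a, a distant HSP70 relative, had 41 counts over the 4 cultures and 11020 over the 2 whole DG libraries, that is 1.32, 1.39, 0.86 and 0 CPM against 343 and 347 CPM (log2 -8.54, SE 0.46, adjusted p = 1.11e-06). Hspa12b lay at 0.10 to 2.15 CPM in cultures and at 4.78 and 3.83 CPM in whole DG (log2 -1.86, adjusted p = 0.0358), a call lost under several alternatives, among them leaving out culture F1 (adjusted p = 0.0812), whole DG F1 (0.173) or whole DG M2 (0.106). Over the 15 members of the HSP70 and HSP110 group, Hspbp1 included, 5 rose and 8 fell, with a median log2 difference of -1.86.

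The heat shock factors, which induce many of these genes, were 0 higher and 2 lower of 3. Hsf1, the main factor of the heat response, stood at 35.3 to 44.8 CPM in cultures and 35.2 and 44.9 CPM in whole DG (log2 -0.02, SE 0.16, adjusted p = 0.918), so the groups overlapped. Hsf2 fell by 1.54 (SE 0.18). Hsf4 had 0 counts in the 4 cultures and 253 over the 2 whole DG libraries, at least 117-fold lower in cultures when a floor of 3 counts over the group is taken.

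Cochaperones of HSP70 and HSP90 outside the symbol rule also went both ways, with 15 of 27 higher, 6 lower and 6 not past the test. Over all genes 35.6% were higher and 41.7% lower. Bag3, which links HSP70 to autophagy of aggregates, stood at 60.9, 61.9, 60.6 and 84.8 CPM in cultures and 8.00 and 5.90 CPM in whole DG (log2 3.27, SE 0.24, adjusted p = 5.56e-06). Ptges3 (p23), which closes the HSP90 clamp, rose by 1.81, and the ubiquitin ligase Stub1 (CHIP) by 1.01. Fkbp5, an immunophilin induced by glucocorticoids, stood at 5.46, 8.41, 4.49 and 5.66 CPM against 101 and 98.0 CPM (log2 -4.05, SE 0.22, adjusted p = 1.24e-06). Bag6 fell by 1.98. These genes were picked for mention after their values were seen.

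Small HSPs were scarce in both groups, with a summed level of 39.6 to 51.3 CPM in cultures and 33.7 to 38.2 CPM in whole DG. Of 6 tested 3 rose and 2 fell. Hspb6 (HSP20) stood at 12.5, 10.1, 12.99 and 9.66 CPM in cultures and 4.13 and 3.59 CPM in whole DG (log2 1.55, SE 0.25, adjusted p = 0.000586), and it overlaps other annotated genes. Hspb11, an intraflagellar transport subunit despite its name, rose by 1.14 (SE 0.21), a call lost with length and GC trends removed (adjusted p = 0.0697). Hspb8, the Bag3 partner, stood at 7.19, 9.19, 13.9 and 14.9 CPM against 17.1 and 16.4 CPM and did not pass (log2 -0.57, adjusted p = 0.116). Hspb1 (HSP27) lay at 1.98 CPM or less in every culture, lower than whole DG (log2 -1.59, adjusted p = 0.00889), but not when whole DG F1 was left out (adjusted p = 0.119). Hspb3 had 33 counts over cultures and 8 over whole DG and was not tested.

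The DNAJA and DNAJB genes went both ways. Of 4 DNAJA genes 2 rose (Dnaja2 and the mitochondrial Dnaja3) and 1 fell, and of 10 tested DNAJB genes 1 rose (the ER gene Dnajb11, above) and 6 fell, the ER gene Dnajb9 among them. Over all genes 35.6% were higher and 41.7% lower. Dnaja1 and Dnaja2, general partners of HSC70, had small differences (0.19, adjusted p = 0.188, and 0.31, adjusted p = 0.0452), and the call of Dnaja2 was lost under several alternatives (adjusted p up to 0.272) and had the opposite sign with length and GC trends removed (-0.28). Dnajb1, the main partner in disaggregation, stood at 66.3, 67.6, 70.0 and 79.8 CPM in cultures and 63.3 and 54.7 CPM in whole DG (log2 0.27, adjusted p = 0.111). Dnajb6, which suppresses polyglutamine aggregation, did not pass either (log2 -0.29, adjusted p = 0.0626).

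Falls among these genes included the following. Dnaja4 stood at 7.36, 8.93, 12.5 and 10.6 CPM in cultures and 92.5 and 85.5 CPM in whole DG (log2 -3.18, SE 0.20, adjusted p = 2.71e-06). Dnajb5 stood at 44.1, 60.2, 49.6 and 63.7 CPM against 217 and 241 CPM (log2 -2.08, SE 0.16, adjusted p = 8.58e-06). Dnajb2 (HSJ1), a ubiquitin-binding J protein enriched in neurons, fell by 1.14 (SE 0.16, adjusted p = 0.000221). No culture reached the lower whole DG library for these 3 genes.

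Among 25 tested DNAJC genes 10 rose, 8 fell and 7 did not pass, a split not far from that of all genes (35.6% higher and 41.7% lower). Dnajc6 (auxilin), which recruits HSC70 to clathrin coats at nerve terminals, had 0, 0, 0.67 and 0.78 CPM in cultures (15 counts in all) and 362 and 324 CPM in whole DG (log2 -9.93, SE 0.53, adjusted p = 1.06e-06). Dnajc5, the cysteine string protein of synaptic vesicles, stood at 179, 163, 205 and 198 CPM in cultures against 445 and 421 CPM (log2 -1.22, SE 0.13, adjusted p = 4.78e-05). Of the 4 genes listed for nerve terminals and clathrin uncoating 2 fell, 1 rose (Hspa8) and 1 did not pass. Dnajc27, a Rab-like GTPase with a J domain, fell by 2.51, and Dnajc12, a partner of aromatic amino acid hydroxylases, by 1.59 on the log2 scale. Dnajc7 overlapped between groups (log2 0.03, adjusted p = 0.839).

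Dnajc9, a J protein that assists histone H3 and H4 folding, had the largest fitted rise of the tested members, but not with length and GC trends removed (log2 1.90, below Cct3 at 2.11) or after thinning whole DG counts to culture depth (2.50, below the highest small HSP at 2.90). It stood at 165, 178, 116 and 183 CPM in cultures and 30.9 and 28.8 CPM in whole DG (5.38-fold, log2 2.43, SE 0.22, adjusted p = 1.76e-05). Dnajc8, a splicing-associated member, rose by 0.73 (SE 0.12), a call lost with length and GC trends removed (0.09, adjusted p = 0.506). Dnajc21, which acts in ribosome maturation, stood at 1.41, 1.56, 0.67 and 1.66 CPM in cultures and 22.6 and 18.2 CPM in whole DG (log2 -3.93, SE 0.32, adjusted p = 1.03e-05), although it ranked higher among the members in the single-cell library described below (42 of 53, against 53 of 53 in bulk cultures).

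The order of levels differed between the groups at the top. Per kilobase of exon, Hspa8 (616 CPM per kilobase) and Hsp90ab1 (604) led in cultures and their means differed by less than the spread of either gene over cultures. Hspa5 (296), Hspd1 (290) and Cct5 (236) followed. In whole DG Hsp90ab1 (703) and Hspa8 (421) led, and Hsp90aa1 (294) came next, ahead of Hsp90b1 (115). These levels use the summed exon length of all annotated transcripts, so they understate genes expressed mainly as a short transcript.

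Among the cultures themselves the median CV was 14.5% for members and 21.1% for all genes, which were not matched for level. Member CVs ran from 2.57% to 116%, and subfamily medians from 6.08% (DNAJA) to 37.1% (small HSPs). Between the sexes none of 71 tested members was called by edgeR, against 0.0264% of all genes, and 4 had an unadjusted p under 0.05 (background 6.22%): Hspd1 and Hsph1 with the higher mean in females, Dnajb3 and Hspb8 with the higher mean in males. DESeq2 also called none and gave 4 at that unadjusted level. Hspd1 averaged 897 CPM in female and 633 CPM in male cultures (log2 0.49, SE 0.19, unadjusted p = 0.0347, adjusted p = 0.774). Both female cultures were above both male cultures in 25 members (18.9% of all genes) and below both in 11 (17.7%).

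All 7 CCT subunits had both females above both males, with F1 the highest culture each time, and so did the 3 HSP90 genes. For the CCT subunits the log2 differences between females and males ran from 0.24 for Cct8 to 0.32 for Cct2, with adjusted p of 0.806 or more in edgeR. With 2 cultures a sex, sex and culture cannot be told apart, and the subunits are not independent of one another.

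The single-cell library gave 14912 cells in the 6 clusters numbered 0 to 5 by the authors, with 2001 to 8531 UMIs (unique molecular identifiers) per cell and no barcode shared. Of the 89 members 71 were analysed there, without Cct6a, Dnajc6 and mostly pseudogenes or scarce genes besides, and 53 had 500 or more UMIs. Clusters were formed from all genes, members included, and come from 1 library, so what follows describes these cells without a test. Levels are UMIs per 1000000 UMIs of a cluster, and intervals are exact Poisson 95% intervals, which cover counting error only.

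In 40 of the 53 members the highest cluster was less than 1.5-fold above the lowest, where 57.2% of all 8203 genes with 500 UMIs or more were. Of the 53 members 2, Dnajc9 and Hspa14, reached 2-fold, against 15.2% of those genes. The CCT subunits above that count had ranges of 1.09-fold (Cct3) to 1.27-fold (Cct4). Hsp90ab1 lay between 3101 and 3479, Hspa8 between 1667 and 2093 and Hspa5 between 331 and 425. The highest cluster was most often cluster 1 (17 of 53), and the lowest cluster 5 (20) or cluster 0 (15). How often each cluster was highest or lowest over all genes was not counted, so these numbers have no background. Cluster 5 also had the fewest cells (1092), and for some members the highest or lowest cluster changed when cells were thinned. Summed over all members, levels ran from 12299 in cluster 0 to 14081 in cluster 1.

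Dnajc9 had the widest range. It stood at 78.4 (74.0 to 83.0), 175 (168 to 183), 268 (260 to 276), 152 (143 to 160), 232 (221 to 243) and 60.4 (53.5 to 68.0) UMIs per 1000000 in clusters 0 to 5, a 4.44-fold range. The 6 division genes summed to 160, 537, 1605, 540, 2185 and 130 in the same clusters, so the clusters that held the most division transcripts, 2 and 4, were those highest in Dnajc9. Hspa14 stood at 43.4, 68.0, 93.0, 69.1, 79.2 and 46.8, again highest in cluster 2 and lowest in clusters 0 and 5. Dnajc21 (17.6 to 35.0), Dnajb9 (18.9 to 36.6) and Hspa4l (12.6 to 23.7) followed with ranges just under 2-fold, which passed 2-fold when cells were thinned to 2000 UMIs each.

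Other patterns were seen for single members. Hspa9 was highest in cluster 5, at 348 (331 to 365), against 220 to 278 in the other clusters. Hsp90aa1 was lowest in cluster 0, at 677 (664 to 691), against 781 to 977 in the others. The inducible genes Hspa1a and Hspa1b had 35 and 26 UMIs in the whole library, and Hspa12a had 12. How reads shared by the near-identical Hspa1a and Hspa1b were counted is not known for this library either, so their levels are uncertain.

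**Figure D4:**
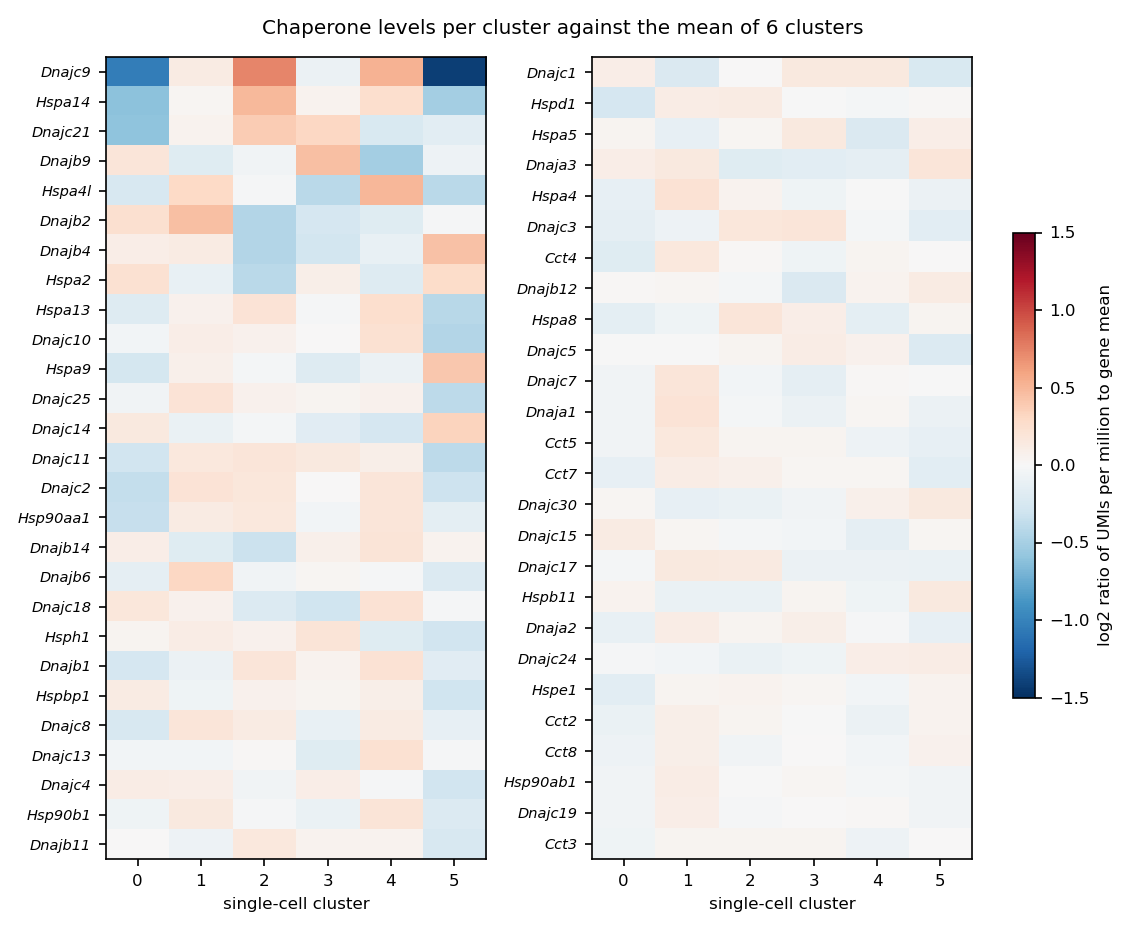
Level of each of the 53 members with 500 UMIs or more in clusters 0 to 5, as the log2 ratio to the mean of the 6 clusters, sorted by range. Dnajc9 at the top runs from 60.4 UMIs per 1000000 in cluster 5 to 268 in cluster 2, while Cct3 at the bottom right stays between 307 and 333.

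Bulk cultures and single cells ranked the members similarly. Across the 53 members Spearman's rho between the mean CPM per kilobase of cultures and UMIs per 1000000 was 0.828, and 0.619 for whole DG. These are descriptions across genes, which are not independent replicates, and no cell or library was shared. The median ratio of UMIs per 1000000 to CPM per kilobase was 3.02 and ran from 0.768 (Hspbp1) to 97.5 (Dnajc21). Hspe1, a short gene, ranked 4 of 53 in single cells and 10 in bulk cultures. Hsp90aa1, which fell against whole DG, ranked 3 in single cells and 11 in bulk cultures.

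**Figure D5:**
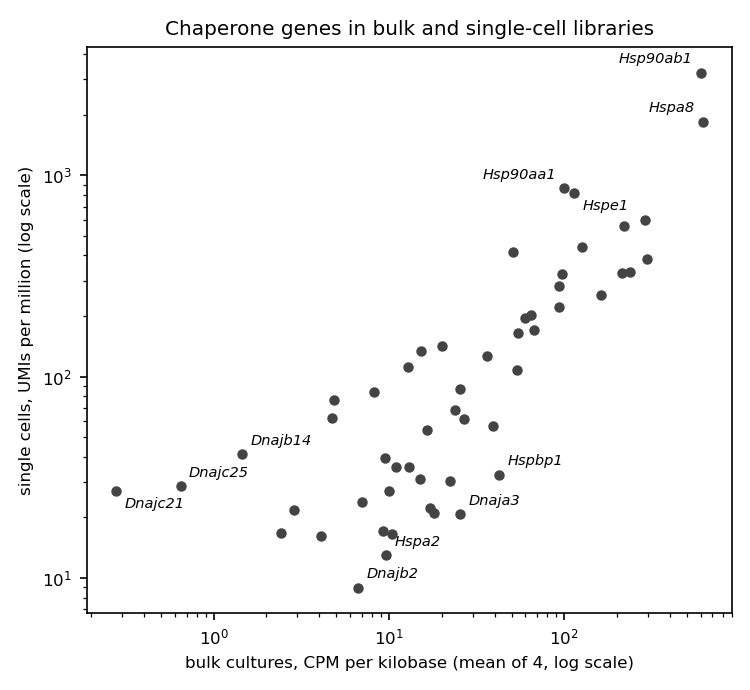
Level of 53 members in bulk cultures (mean CPM per kilobase of 4 libraries) against the single-cell library (UMIs per 1000000), both on log axes. Points rise together (rho 0.828), with Dnajc21 and Dnajc25 far left of the others at 27.0 and 28.7 UMIs per 1000000.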

How the data were processed

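RNA was measured in 4 bulk NSPC culture libraries, 2 bulk whole DG libraries and 1 pooled single-cell library, with groups, sexes and replicate names taken from the labels. For bulk libraries the authors deposited raw counts per gene symbol. Tools listed in the submitters' processing notes are HISAT2 2.0.6 and CASAVA 1.8.2, with featureCounts of Subread, and the build listed is GRCh38, although the symbols are those of mouse genes. Counting options, strand use included, are not given in the sources, and 38 of the 73 tested members overlap another gene in GENCODE M21 (mouse build GRCm38), which was used for positions, exon lengths and GC content and matched all 89 member symbols. For single cells the deposited values are on a natural log scale, ln(1 + UMIs scaled to 10000 per cell), made with Cell Ranger 3.1.0 and Seurat 3.1.0 per the submitters' processing notes (the labels' protocol names other versions). All entries (100%) were within 0.01 of whole UMIs once converted back. No cell filter was added, no doublet caller was run, and whether doublets were removed earlier is not given.

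Counts were tested over all genes with edgeR 4.0.16 in R 4.3.3 (robust quasi-likelihood F test, TMM scaling, default low-count filter, Benjamini-Hochberg adjustment, threshold 0.05), with glmTreat for a fold of 2. Sexes were compared among the 4 cultures. CPM use TMM library sizes. No label says that the 4 bulk cultures came from separate mice, so p-values measure the spread between these cultures and between 2 tissue samples, which may be partly technical. Read counts without molecular identifiers are not independent molecules. DESeq2 1.42.0, other scalings and filters, leaving out each library, a replicate block, removal of length and GC trends, and thinning were alternatives. The fit was tested on simulated counts.

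The members, lists and alternatives were chosen with earlier results of these data known. Genes named are 40 listed members and the CCT genes, the 5 largest separated rises and 5 largest falls at 10 CPM or more, the 2 most abundant per subfamily, and the 5 with the widest range over clusters among members with 500 UMIs or more. Other genes are said to be picked after their values were seen, or belong to a list described whole. A gene of the NSPC marker list and a gene of the cochaperone list are not reported here.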

Additional observations from a re-analysis of the deposited data

Results flagged for a closer look

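Of 54 named genes, 4 had 1 culture far from the other 3 by Dixon's test at the 95% level, and chance alone flags about 1 in 20 groups. Dnaja1 had its lowest culture in M2, at 401 CPM against 451 to 455 CPM. Dnajc8 had its highest culture in F2, at 151 CPM against 134 to 136 CPM. Hspe1 had its highest culture in F2, at 218 CPM against 147 to 159 CPM, and its neighbour Hspd1 was also highest in F2, at 982 CPM. Hspa1a had its highest culture in F1, at 5.87 CPM against 2.95 to 3.25 CPM, and its near-identical neighbour Hspa1b was highest in the same culture, at 6.45 CPM.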

How the results depend on the processing

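Of the 43 called named genes 35 kept their direction and call under all 15 alternatives, 8 lost the call under at least 1 and 1 of them, Dnaja2, also changed sign. Of the named genes not called 7 gained a call and 2 changed sign under at least 1 alternative. Leaving out 1 library gave at most 32 members higher and 27 lower, and at most 18 higher and 20 lower by more than 2-fold. The lowest of these counts came when a whole DG library was left out, which leaves 1 in that group. The sexes were compared among the cultures alone, so no whole DG library entered that comparison. With length and GC trends removed, 11 members instead of 18 were higher by more than 2-fold. Counting only the 35 tested members that overlap no other gene gave 14 higher and 16 lower, 6 and 13 of them by more than 2-fold. Over all 73 tested members 32 were higher and 26 lower, 18 and 20 of them by more than 2-fold. At the adjusted p threshold alone, rises thus outnumbered falls among all members but not among those without overlap. By more than 2-fold, falls outnumbered rises in both sets. Of all genes tested, overlapping or not, 35.6% were higher and 41.7% lower, and 20.3% and 31.9% by more than 2-fold. The part of gene overlap was not tested. Members with a 2-fold or wider range over clusters numbered 2, 5 when cells were thinned to 2000 UMIs, 4 when cells were weighted equally, and 2 among cells with a mitochondrial share under 20%.

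Signs changed for 3 genes with differences near 0 (log2). Hspa4 was -0.0739 with DESeq2 size factors and also -0.0739 in DESeq2, and -0.0858 with length and GC trends removed, with a range of -0.0671 to 0.128 when 1 library was left out. Dnajc7 was -0.0726 and -0.0725 in the former pair, with a range of -0.0204 to 0.0778. Dnaja2 was -0.284 with length and GC trends removed (adjusted p = 0.0370). The causes were not tested. DESeq2 size factors moved the median of all genes from -0.13 to -0.23 and upper-quartile factors moved it to 0.05.

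In the 4 libraries named F1 or M2, a replicate block gave 31 members higher and 25 lower and put Hspa4 at -0.0332, and without the replicate block the counts were 31 and 27 with Hspa4 at -0.0311. Deviations of libraries with the same name correlated at 0.0446 and 0.0604 across genes, in each case the highest value among the 4 cultures. With 2 whole DG libraries their deviations are mirror images, so these values are not separate checks. They cannot decide whether the names pair the samples. The 16 members removed by the low-count filter were not tested.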

Other observations

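Bulk and single-cell data disagreed on Dnajc21, singled out here after its values were seen. In bulk it had 59 counts over the 4 cultures, 15.3-fold lower than whole DG and the last of 53 members per kilobase of exon. In the single-cell library it had 1685 UMIs, 27.0 per 1000000, and ranked 42 of 53. Dnajc25 was next in the ratio of single-cell to bulk level (44.4 against a median of 3.02), with 2.94 CPM on average in bulk cultures and 28.7 UMIs per 1000000 in single cells. Dnajc25 overlaps another annotated gene on the same strand, while Dnajc21 overlaps none. The part of overlap in the bulk counts was not tested. No single cells of whole DG were analysed here.

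Cluster 5 of the single-cell library was the highest cluster for Hspa9 at 348 UMIs per 1000000, for the mitochondrial protease Lonp1 at 66.5 (34.1 to 42.0 in the other clusters) and for the stress transcription factor Ddit3 at 26.3 (4.95 to 8.14 in the others), while its Hspd1 level, 611, lay within the range of the other clusters (505 to 656). Cluster 5 and these genes were singled out after their values were seen, and the clusters were formed with them included, so the values are a description. The median UMI count per cell in cluster 5 was 4086, and the median mitochondrial share was 10.6%, against 9.74% to 11.6% in the other clusters.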
